A study of Mus musculus with 20 samples.

Results

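The bone morphogenetic protein (BMP) pathway of the mouse colon was examined through 9 genes, taken by name. They were the ligands Bmp2, Bmp4, Bmp5 and Bmp7, the receptor Bmpr1a, the secreted antagonists Grem1 and Nog, and the target genes Id1 and Id3. They are 9 of the 32991 genes that had a value in the RNA-seq data. The samples were colon tissue from 20 male C57BL/6 mice, in 4 groups of 5 with 1 library per mouse. The Control and PZH groups received no carcinogen. The AOM/DSS group (Model in the labels) and the PZH + AOM/DSS group (Model + PZH in the labels) received 12.5 mg/kg azoxymethane (AOM), a carcinogen, by intraperitoneal injection. From 7 days later they drank 2% dextran sulfate sodium (DSS), which injures the colon lining, in repeated cycles of 5 days, each followed by plain water. The PZH and PZH + AOM/DSS groups were given 250 mg/kg/d PZH (Pien Tze Huang, a formula of traditional Chinese medicine) by gavage for 91 days, and the Control and AOM/DSS groups distilled water. All mice were of the same strain, and no engineered allele is named. Their age is not given in the sources used here, and neither is the share of tumor in each tissue sample.

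BMP ligands are secreted proteins of the transforming growth factor beta family that bind receptor complexes such as those with Bmpr1a. The receptors phosphorylate Smad proteins, which enter the nucleus and switch on targets such as the Id genes. Secreted antagonists bind the ligands and keep them from the receptors. In the colon, BMP signaling is known to be weak at the crypt base, where stem cells divide, and strong towards the luminal surface, where cells mature. Antagonists such as Grem1 come mainly from mesenchymal cells beneath the crypt base.

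Values were FPKM (fragments per kilobase of transcript and M fragments of the library), summed over the Ensembl transcripts of each gene. Fold changes are on the log2(FPKM + 1) scale, which understates the change of low genes, and were tested with limma with p-values adjusted over all genes tested. The depth read from the spacing of low values was 15.3 to 19.5 M fragments per mouse. At that depth the members ranged from a median of 21.7 estimated fragments per mouse for Nog to 3738 for Id1, so Nog was the least precise. All 9 members passed the filter on low values (at least 0.5 FPKM in at least 5 mice) in every comparison.

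Some libraries stood apart. A set of 6 markers of squamous epithelium, which does not belong to the colon lining, summed to 302 and 251 FPKM in Control mice 17 and 50, against 0.824 to 1.65 FPKM in the other 3 Control mice and 0.353 to 1.43 FPKM in the PZH group. The same sum was 11.7 to 35.4 FPKM in the AOM/DSS group, 59.5 FPKM in PZH + AOM/DSS mouse 35 and 2.52 to 9.22 FPKM in the other 4 mice of that group, so it moved with AOM/DSS when mice 17 and 50 are set aside. Of its 4 markers tested between AOM/DSS and Control mice none passed, and its part in the results below was not tested. Control mouse 50 also had the highest summed level of 8 smooth muscle markers, 5266 FPKM against 890 to 2882 FPKM in the other 19 mice. PZH + AOM/DSS mouse 35 stood with the AOM/DSS mice in its marker sums. Its sum for 6 crypt base stem cell markers was 165 FPKM, against 47.6 to 71.6 FPKM in the other 4 mice of its group and 111 to 165 FPKM in the AOM/DSS group. Where leaving out these mice changed the call of a member, both values are given. The extraction text in the labels names the abdominal aorta, but the tissue label is colon, and 8 markers of surface colonocytes summed to 629 to 4746 FPKM per mouse. Epcam, an epithelial marker, was listed at 0 in all 5 Control mice. Fragments assigned to transcripts assembled from the reads, which carry no gene name, are missing from the sums, so a low sum does not show that a gene was silent.

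Among the members, Id1 had the highest level, with a median of 238 FPKM over the 20 mice, followed by Id3 at 40.1 FPKM and Grem1 at 24.0 FPKM. Bmp2 (16.2 FPKM), Bmp4 (12.7 FPKM), Bmpr1a (10.1 FPKM) and Bmp5 (9.55 FPKM) followed. The lowest were Bmp7 at 3.56 FPKM and Nog at 0.743 FPKM. The ranges over mice of Bmp2, Bmp4, Bmpr1a and Bmp5 overlapped. Within mice, Bmp2 lay above Bmp5 in all but AOM/DSS mouse 33 (10.6 against 13.4 FPKM). The order of these genes was not tested.

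**Figure D1:**
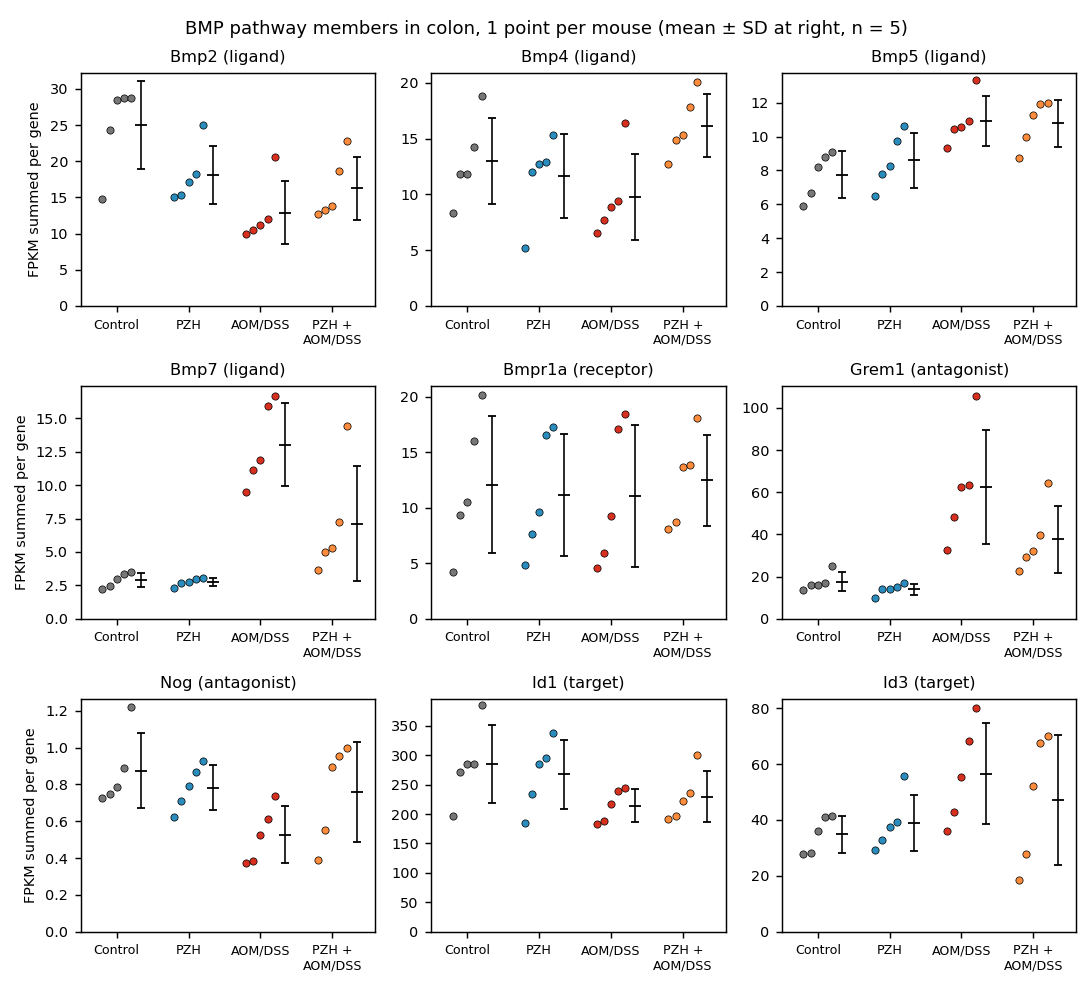
Summed FPKM (y axis, linear, from 0) of each of the 9 members in each of the 20 mice (points), by group (x axis), with the group mean ± SD beside them (n = 5). The AOM/DSS points of Bmp7 and Grem1 all lie above the Control points, and 1 PZH + AOM/DSS mouse lies at 14.4 FPKM of Bmp7, among the AOM/DSS mice.

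The first question was what AOM/DSS did to the pathway. Compared with the Control group, Bmp7, Grem1 and Bmp5 rose and Bmp2 fell in the AOM/DSS group, so 3 of 9 members were higher and 1 was lower at an adjusted p under 0.05. Of all 15812 genes tested in this comparison, 23.6% passed the same threshold, 16.4% higher and 7.23% lower, with a median log2 fold change of 0.09. The groups did not overlap for Bmp5, Bmp7 and Grem1, as for 18.4% of all genes. With median-of-ratios scaling between mice, the calls were 1918 higher and 1604 lower, against 2596 and 1143 without it. Bmp4, Bmpr1a, Nog, Id1 and Id3 did not pass. Bulk tissue was sequenced, so fewer cells of a type and less RNA per cell cannot be told apart in any of these results.

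Bmp2, a ligand known in the colon from mature surface cells, was at 28.7, 14.8, 28.8, 28.4 and 24.4 FPKM in the Control mice and 25, 18.2, 17.2, 15.3 and 15 FPKM in the PZH mice. In the AOM/DSS group it was at 9.99, 20.6, 10.6, 11.2 and 12.1 FPKM, and in the PZH + AOM/DSS group at 13.3, 22.8, 13.8, 12.7 and 18.7 FPKM. Control mouse 37 was low and AOM/DSS mouse 30 high, so these groups overlapped, while the other 4 AOM/DSS mice lay below every Control mouse. The mean went from 25 ± 6.03 FPKM (SD, n = 5) in the Control group to 12.9 ± 4.38 FPKM (SD, n = 5) in the AOM/DSS group. The log2 fold change was -0.91 (SE 0.23, 95% confidence interval -1.42 to -0.41, limma adjusted p = 0.0148). Without Control mice 17 and 50, an alternative chosen after seeing the data, it was -0.84 with an adjusted p of 0.0757, so the call ended. The summed level of the surface colonocyte markers moved in the same direction, from 3534 to 4746 FPKM in the Control group to 629 to 1789 FPKM in the AOM/DSS group, with 5 of 8 markers lower and none higher. Their part in the Bmp2 result was not tested.

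Bmp4, a ligand known from mesenchymal cells near the crypts, was at 11.8, 8.34, 14.2, 18.8 and 11.8 FPKM in the Control mice and 12.9, 15.3, 5.23, 12 and 12.8 FPKM in the PZH mice. It was at 9.37, 16.4, 6.52, 8.90 and 7.71 FPKM in the AOM/DSS mice and 20.1, 17.8, 12.7, 14.8 and 15.3 FPKM in the PZH + AOM/DSS mice. The AOM/DSS group overlapped each of the other groups, and AOM/DSS mouse 30 was again its highest mouse. Against Control, the log2 fold change of the AOM/DSS group was -0.40 (95% confidence interval -0.94 to 0.15, limma adjusted p = 0.282).

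Bmp5, another ligand, was at 6.67, 5.91, 8.79, 9.12 and 8.19 FPKM in the Control group and 7.80, 10.7, 6.51, 8.29 and 9.76 FPKM in the PZH group. The AOM/DSS mice had 9.34, 10.9, 13.4, 10.5 and 10.6 FPKM and the PZH + AOM/DSS mice 9.99, 11.3, 12, 11.9 and 8.75 FPKM. All AOM/DSS mice lay above all Control mice, by a narrow margin between 9.34 and 9.12 FPKM. Bmp5 rose with a log2 fold change of 0.46 (SE 0.14, 95% confidence interval 0.15 to 0.77, limma adjusted p = 0.0380). This call was the least stable of the 4. It was kept in 3 of 10 fits that each left out 1 mouse (adjusted p from 0.0372 to 0.0884) and was lost without Control mouse 17, 37 or 50 or AOM/DSS mouse 30, 33, 44 or 52, with adjusted p of 0.0805 without Control mouse 17 and 0.0552 without 50. It was also lost with median-of-ratios scaling (adjusted p = 0.0817) and without Control mice 17 and 50 together (0.120).

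Bmp7, a ligand that also acts in kidney and skeletal development, showed the clearest separation of the ligands. It was at 2.24, 2.49, 3.32, 3.49 and 3.0 FPKM in the Control mice and 2.31, 3.01, 2.66, 2.77 and 3.06 FPKM in the PZH mice. In the AOM/DSS group it was at 11.1, 9.50, 11.9, 16.7 and 15.9 FPKM, and in the PZH + AOM/DSS group at 5.02, 3.63, 7.21, 14.4 and 5.31 FPKM. The lowest AOM/DSS mouse lay above the highest mouse without AOM/DSS, and 4 of 5 PZH + AOM/DSS mice lay between these groups. The mean was 2.91 ± 0.533 FPKM (SD, n = 5) in the Control group and 13 ± 3.12 FPKM (SD, n = 5) in the AOM/DSS group. Bmp7 rose with a log2 fold change of 1.83 (SE 0.17, 95% confidence interval 1.45 to 2.21, limma adjusted p = 5.02e-05). It stayed past the threshold in all 10 fits without 1 mouse and under all 7 other settings tried, and without Control mice 17 and 50 (log2 fold change 1.75, adjusted p = 0.000938). The 5 tested crypt base stem cell markers and the 5 markers of subepithelial telocytes, mesenchymal cells that lie under the epithelium, were all higher in the AOM/DSS group. The telocyte sum was 35.2 to 52.9 FPKM in the Control group and 79.2 to 110 FPKM in the AOM/DSS group. The part of either in the Bmp7 result was not tested.

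The 4 ligands together summed to 48.7 ± 10.8 FPKM in the Control group, 41.1 ± 6.75 in the PZH group, 46.6 ± 6.73 in the AOM/DSS group and 50.3 ± 4.2 in the PZH + AOM/DSS group (SD, n = 5 each). The sums overlapped between all groups, while the make-up of the sum differed. Bmp2 made up 51.2 ± 4.50% of it in the Control group and 27.1 ± 4.95% in the AOM/DSS group, and Bmp7 6.12 ± 1.21% and 28.5 ± 7.48%. In the PZH + AOM/DSS group Bmp2 made up 32.2 ± 7.49% and Bmp7 14.1 ± 7.83%, with Bmp7 at 26.8% in mouse 35. Bmp7 made up no more than 8.42% in any mouse without AOM/DSS and no less than 16.5% in any AOM/DSS mouse. The level of Bmp2 was 8.75 ± 2.52 times that of Bmp7 in the Control group and 1.08 ± 0.617 times in the AOM/DSS group. These shares were computed from the values above and are given as a description, without a test.

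**Figure D2:**
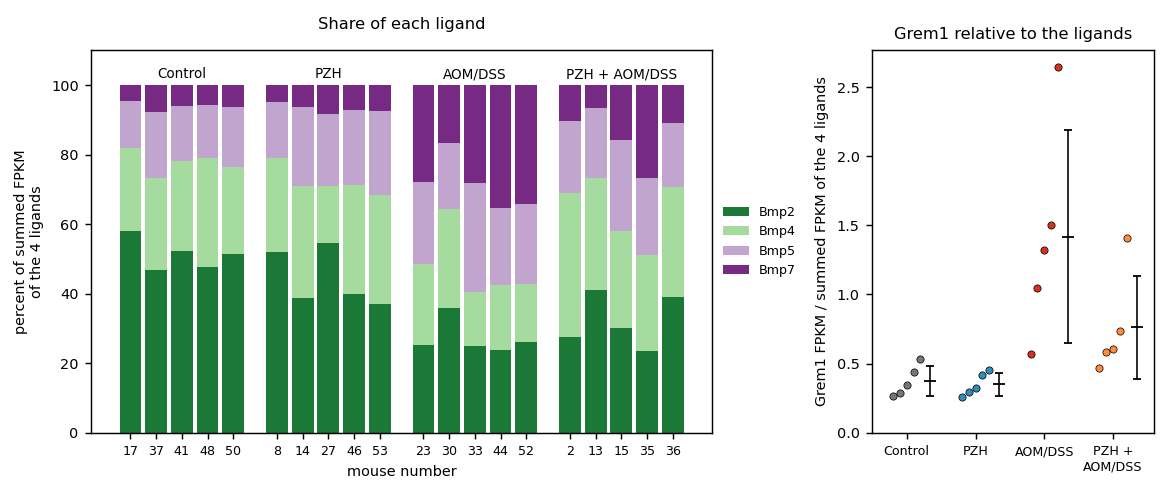
Left, share of Bmp2, Bmp4, Bmp5 and Bmp7 in their summed FPKM (y axis, percent) in each mouse (x axis, mouse number, by group). Right, FPKM of Grem1 divided by the summed FPKM of the 4 ligands in each mouse, with mean ± SD (n = 5). The Bmp7 share is at most 8.42% in Control and PZH mice and at least 16.5% in AOM/DSS mice, and the Grem1 ratio is at least 0.572 in AOM/DSS mice and at most 0.532 in Control mice.

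Bmpr1a, a type I receptor for these ligands, was the most variable member within groups. It was at 16.0, 9.37, 20.1, 10.5 and 4.2 FPKM in the Control mice and 16.5, 4.85, 9.63, 7.63 and 17.3 FPKM in the PZH mice. It was at 9.26, 17.1, 18.4, 4.60 and 5.91 FPKM in the AOM/DSS mice and 18.0, 13.7, 13.9, 8.10 and 8.75 FPKM in the PZH + AOM/DSS mice. The highest Control mouse had 4.80 times the level of the lowest, so the 4 groups covered one another. The log2 fold change of the AOM/DSS group against Control was -0.14, with a 95% confidence interval of -1.11 to 0.83 (limma adjusted p = 0.856), which leaves room for a change in either direction.

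Grem1 encodes gremlin 1, an antagonist that binds BMP ligands outside the cell. It was at 17, 13.9, 15.9, 15.9 and 25.2 FPKM in the Control mice and 14, 15.2, 14.3, 9.81 and 17 FPKM in the PZH mice. It was at 106, 32.9, 63.6, 62.5 and 48.3 FPKM in the AOM/DSS mice and 22.8, 32.3, 64.2, 39.8 and 29.2 FPKM in the PZH + AOM/DSS mice. No AOM/DSS mouse overlapped the Control or PZH mice, and AOM/DSS mouse 23 was the highest of all. The mean was 17.6 ± 4.42 FPKM (SD, n = 5) in the Control group and 62.6 ± 27.1 FPKM (SD, n = 5) in the AOM/DSS group. Grem1 rose with a log2 fold change of 1.70 (SE 0.27, 95% confidence interval 1.10 to 2.3, limma adjusted p = 0.00151). The call held in all 10 fits without 1 mouse and under all 7 other settings tried, and without Control mice 17 and 50 (1.87, adjusted p = 0.00523). Of the 8 fibroblast markers, 2 were higher and 1 was lower in the AOM/DSS group, with sums of 330 to 562 FPKM in the Control group and 436 to 534 FPKM in the AOM/DSS group. All 8 smooth muscle markers were lower there, with sums of 2282 to 5266 FPKM in the Control group and 1012 to 1769 FPKM in the AOM/DSS group. Grem1 is known from muscle and fibroblast cells of the colon wall, and its rise stood beside these sums, whose part was not tested.

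Relative to the 4 ligands, Grem1 was at 0.374 ± 0.111 of their summed FPKM in the Control group, 0.348 ± 0.0843 in the PZH group, 1.42 ± 0.773 in the AOM/DSS group and 0.761 ± 0.374 in the PZH + AOM/DSS group (SD, n = 5 each). The ratio ran from 0.572 to 2.65 in the AOM/DSS mice and from 0.471 to 1.41 in the PZH + AOM/DSS mice, so these groups overlapped.

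Grem1 was the member antagonist that passed the threshold, and Bmp4 the ligand with the lowest unadjusted p between AOM/DSS mice with and without PZH. Their promoters, the 250 bases before the RefSeq transcription start on the minus strand of GRCm38.p6, are therefore shown for sequence context. Capitals mark GGCGCC, a GC-rich element bound by BMP-activated Smads, and GTCT or its reverse complement AGAC, the short Smad box, with no overlap between marked motifs. The Grem1 window is chr2:113758649-113758898 and the Bmp4 window chr14:46390670-46390919.
Grem1: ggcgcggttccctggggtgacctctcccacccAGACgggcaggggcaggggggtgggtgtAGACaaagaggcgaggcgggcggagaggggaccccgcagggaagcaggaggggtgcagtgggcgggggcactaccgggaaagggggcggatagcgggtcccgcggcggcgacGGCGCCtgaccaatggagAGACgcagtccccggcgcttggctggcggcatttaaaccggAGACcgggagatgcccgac
Bmp4: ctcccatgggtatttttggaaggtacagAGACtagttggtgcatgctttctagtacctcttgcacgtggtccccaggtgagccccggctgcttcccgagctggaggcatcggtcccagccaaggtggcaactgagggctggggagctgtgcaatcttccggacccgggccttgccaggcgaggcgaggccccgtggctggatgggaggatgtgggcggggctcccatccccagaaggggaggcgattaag
The Grem1 window held 1 GGCGCC, whose first base lay 78 bases before the start, and 4 AGAC. The Bmp4 window held 1 AGAC and no GGCGCC. Over 32851 mouse promoters of the same length, 9.59% held GGCGCC and 82.9% held GTCT or AGAC, and the median GC content was 52.4%, against 72% for Grem1 and 63.2% for Bmp4. Short matches of this kind are a description of the letters and not of binding. RefSeq promoter entries were matched for 5 of the 9 members, namely Bmp4, Bmp5, Bmpr1a, Grem1 and Id3.

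Nog encodes noggin, an antagonist that blocks the receptor-binding faces of BMP ligands. It was at 0.784, 0.750, 1.22, 0.891 and 0.727 FPKM in the Control mice and 0.708, 0.790, 0.924, 0.623 and 0.866 FPKM in the PZH mice. It was at 0.374, 0.611, 0.384, 0.525 and 0.737 FPKM in the AOM/DSS mice and 0.952, 0.897, 0.998, 0.388 and 0.553 FPKM in the PZH + AOM/DSS mice. The groups overlapped, with 4 of 5 AOM/DSS mice below every Control mouse. The log2 fold change against Control was -0.30 (SE 0.11, limma adjusted p = 0.0732), which did not pass, whereas with median-of-ratios scaling it was -0.34 and passed (adjusted p = 0.0380). With a pseudocount of 0.1 in place of 1 it was -0.65 (adjusted p = 0.0765). Nog rested on 10.8 to 40.5 estimated fragments per mouse, so its fold changes are uncertain at this depth.

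Id1 and Id3 encode inhibitors of DNA binding, which hold back differentiation factors and are among the best known targets of BMP signaling. Id1 was at 271, 285, 285, 385 and 197 FPKM in the Control mice and 234, 285, 295, 338 and 186 FPKM in the PZH mice. It was at 217, 183, 189, 239 and 244 FPKM in the AOM/DSS mice and 236, 223, 197, 300 and 191 FPKM in the PZH + AOM/DSS mice. Control mouse 50 was the only Control mouse within the AOM/DSS range. The log2 fold change of Id1 in the AOM/DSS group was -0.39 (SE 0.17, 95% confidence interval -0.75 to -0.02, limma adjusted p = 0.118). It passed without Control mouse 50 (-0.51, adjusted p = 0.0301) and without Control mice 17 and 50 (-0.56, adjusted p = 0.0360), and in none of the other 9 fits that each left out 1 mouse.

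Id3 was at 28.1, 41.1, 41.3, 36.1 and 27.9 FPKM in the Control mice and 32.9, 37.6, 29.2, 39.1 and 55.7 FPKM in the PZH mice. It was at 35.9, 80.2, 42.9, 68.2 and 55.3 FPKM in the AOM/DSS mice and 52.2, 67.4, 27.7, 70.2 and 18.4 FPKM in the PZH + AOM/DSS mice. In the AOM/DSS group, 4 of 5 mice lay above every Control mouse. The log2 fold change was 0.64 (SE 0.22, 95% confidence interval 0.16 to 1.12, limma adjusted p = 0.0557), which did not pass, and without AOM/DSS mouse 23 it was 0.79 and passed (adjusted p = 0.0241). The estimates for these Id genes thus had opposite signs, and neither passed with all mice. Id1 had 8.25 ± 1.79 times the level of Id3 in the Control group and 4.13 ± 1.38 times in the AOM/DSS group (SD, n = 5 each).

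The other genes of the pathway were taken from fixed lists of ligands, receptors, antagonists, Smad mediators and targets. Of 49 such genes other than the members, 36 were tested between AOM/DSS and Control mice. Of these, 9 were higher and 2 lower, where 16.4% of all genes tested were higher and 7.23% lower. The median log2 fold change was 0.26, against 0.09 over all genes. The 9 and the median include Bmper and Msx1, which entered the test only through the AOM/DSS mice and could only be called higher. Among the ligands, Bmp8b was higher (0.77, SE 0.24, limma adjusted p = 0.0424), with means of 0.682 and 1.95 FPKM in the Control and AOM/DSS groups. Its call was kept in 3 of 10 fits that each left out 1 mouse, those without Control mouse 41 or AOM/DSS mouse 33 or 44 (adjusted p from 0.0339 to 0.0984). Among the receptors, Eng, which encodes the endothelial co-receptor endoglin, was higher (0.53, adjusted p = 0.00924), at 6.0 to 8.54 FPKM in the Control group and 9.22 to 12.4 FPKM in the AOM/DSS group. None of the 9 receptors tested was lower.

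The secreted antagonists did not move as a block. Of the 11 tested, Grem1 included, 4 were higher and 1 was lower, where 16.4% of all genes were higher and 7.23% lower. Chrdl2, a chordin-like antagonist, had the highest fold change, 1.89 (SE 0.22, limma adjusted p = 0.000195), at 0.594 to 0.879 FPKM in the Control group and 3.82 to 10.3 FPKM in the AOM/DSS group. Bmper, which binds BMPs and can dampen or aid them, went from 0.177 to 0.429 FPKM to 0.959 to 1.71 FPKM (log2 fold change 0.92, adjusted p = 0.000304). All its Control values lay under the 0.5 FPKM filter, so it was tested only through the AOM/DSS mice and could only be called higher. Twsg1, a chordin partner, was higher (0.50, adjusted p = 0.0252), with overlapping groups. Chrdl1, another chordin-like antagonist, was lower (-0.86, SE 0.28, adjusted p = 0.0487), at 3.16 to 7.15 FPKM in the Control group and 0.837 to 3.51 FPKM in the AOM/DSS group. The Control maximum was mouse 50, and the other 4 Control mice had 3.16 to 3.79 FPKM. The call of Chrdl1 was kept in 1 of 10 fits that each left out 1 mouse (adjusted p from 0.0194 to 0.116), that without AOM/DSS mouse 30, and was -0.68 without Control mouse 50 (adjusted p = 0.0958). Twsg1 was kept in 6 of 10 such fits and lost without Control mouse 17 or 37 or AOM/DSS mouse 44 or 52, and Chrdl2 was kept in all 10.

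Of 10 target genes tested, 4 were higher and 1 was lower (16.4% and 7.23% of all genes), with no call among Id1, Id2 and Id3. Msx1, a homeobox target, went from 0.0322 to 0.301 FPKM in the Control group to 0.803 to 3.57 FPKM in the AOM/DSS group (1.42, SE 0.23, limma adjusted p = 0.00162). Like Bmper, it was tested only through the AOM/DSS mice and could only be called higher. Atoh8 (0.62, adjusted p = 0.0181), Hey1 (0.67, adjusted p = 0.0380) and Bambi (0.77, adjusted p = 0.0260), the last a pseudoreceptor that dampens the pathway, were also higher. Id4, of the same family as Id1 and Id3, was lower, from 7.36 to 18.4 FPKM to 2.56 to 7.14 FPKM (-1.13, SE 0.28, adjusted p = 0.0146). The Control maximum of Id4 was again mouse 50, without which it was -0.93 (adjusted p = 0.0257). Id4 and Atoh8 were kept in all 10 fits that each left out 1 mouse, Bambi in 5 and Hey1 in 4. Msx1 and Bmper were kept in the 5 fits that each left out a Control mouse. Without any 1 AOM/DSS mouse they did not pass the filter and were not tested. Bambi was lost without Control mouse 17 or 41 or AOM/DSS mouse 30, 44 or 52, and Hey1 without Control mouse 17, 37, 41 or 48 or AOM/DSS mouse 44 or 52. Of 10 Smad mediators and intracellular inhibitors tested, Bambi, which is in both lists, was the only call. Without Control mice 17 and 50 together, 4 of the 9 higher genes outside the members (Chrdl2, Bmper, Eng and Msx1) and neither of the lower ones (Chrdl1 at -0.64, adjusted p = 0.178, and Id4 at -0.81, adjusted p = 0.0661) kept their call. Id2 (1.06, adjusted p = 0.00979) and Fstl1 (0.71, adjusted p = 0.00820) then passed. Bmper and Msx1 again entered only through the AOM/DSS mice, so their kept calls could go in 1 direction only. These fits were chosen after seeing the data. The pathway lists were described by counts and not tested as sets.

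**Figure D3:**
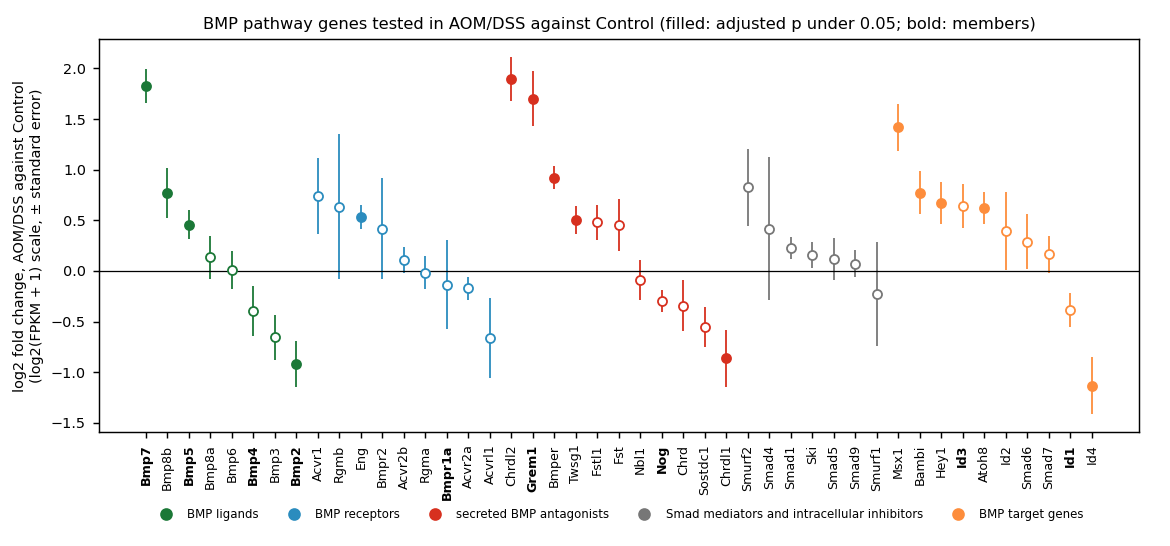
Log2 fold change between AOM/DSS and Control mice (y axis, log2(FPKM + 1) scale, bars ± standard error, 5 mice per group) of the 45 BMP pathway genes tested (x axis), colored by role. Filled points have an adjusted p under 0.05 (12 higher, 3 lower, against 16.4% and 7.23% of all genes), and open points do not. Bmper and Msx1 entered the test only through the AOM/DSS mice and could only be called higher. The members are in bold. Bmp7, Chrdl2 and Grem1 lie highest and Id4 lowest.

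The next question was whether PZH alone altered these genes. Between the PZH and Control groups none of the 9 members passed the threshold, where 0.00645% of 15506 genes did (1 gene by limma). At an unadjusted p under 0.05, which 8.84% of genes reached, there was also no member. The largest estimate was that of Bmp2, -0.43 (95% confidence interval -0.87 to 0.01, adjusted p = 0.571), with 4 of 5 PZH mice at 15 to 18.2 FPKM and 4 of 5 Control mice at 24.4 to 28.8 FPKM. The surface colonocyte sum was 2635 to 3528 FPKM in the PZH group and 3534 to 4746 FPKM in the Control group. Its part in the Bmp2 estimate was not tested. The confidence intervals of Bmp7 (-0.33 to 0.23) and Nog (-0.29 to 0.15) were the narrowest. Those of Bmpr1a (-0.98 to 0.83) and Bmp4 (-0.77 to 0.42) were the widest. The log2(FPKM + 1) scale compresses changes of low genes. The narrow interval of Nog, with means of 0.782 FPKM (PZH) and 0.875 FPKM (Control), is thus no sign of precision. None of the other pathway genes passed either.

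The question the study design put at its center was what PZH did in mice with AOM/DSS. Compared with the AOM/DSS group, none of the 9 members passed the threshold in the PZH + AOM/DSS group, where 0.00629% of 15888 genes did (1 gene). At an unadjusted p under 0.05, reached by 1862 genes or 11.7%, there were 2 members, Bmp4 and Bmp7. Bmp4 had means of 9.78 ± 3.86 FPKM without PZH and 16.2 ± 2.86 FPKM with PZH (SD, n = 5), with a log2 fold change of 0.72 (SE 0.22, 95% confidence interval 0.24 to 1.2, limma unadjusted p = 0.00713, adjusted p = 0.356). All 5 PZH + AOM/DSS mice lay above 4 of the 5 AOM/DSS mice, and AOM/DSS mouse 30 was the exception. Over the fits that each left out 1 mouse, its adjusted p ran from 0.106 to 0.611.

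Bmp7 had a log2 fold change of -0.89 in the same comparison (SE 0.30, 95% confidence interval -1.55 to -0.23, limma unadjusted p = 0.0126, adjusted p = 0.356). Its means were 13 ± 3.12 FPKM in the AOM/DSS group and 7.12 ± 4.29 FPKM in the PZH + AOM/DSS group (SD, n = 5). Of the 10 fits that each left out 1 mouse, 1 passed, with log2 fold changes from -1.16 to -0.72 and adjusted p from 0.0154 to 0.611. The fit that passed was the one without mouse 35. Without it the PZH + AOM/DSS mean was 5.29 ± 1.47 FPKM (SD, n = 4) and the log2 fold change was at its lowest, -1.16. Mouse 35 was the only mouse of its group within the AOM/DSS range, so leaving it out ended the overlap by construction. Leaving out mouse 35 also took the count of all genes past the threshold from 1 to 808. Its sum for 7 leukocyte markers was 186 FPKM, against 67.2 to 105 FPKM in the other 4 mice of its group and 141 to 288 FPKM in the AOM/DSS group. This sum leaves out S100a9, a leukocyte marker listed at 0 in all PZH mice, and with it the values were 324, 67.2 to 133 and 181 to 558 FPKM. S100a8 made up much of the sum, with a PZH + AOM/DSS maximum of 109 FPKM and an AOM/DSS mean of 134 FPKM. The other leukocyte markers did not move as a block. Csf1r was higher in mouse 35 than in those 4 mice, whereas Cd3e was lower. Cd68 (17.29 FPKM) and Cd79a (14.97 FPKM) lay within their range. The surface colonocyte sum of mouse 35 was 948 FPKM, against 2283 to 2980 FPKM in those 4 mice. Its telocyte sum was 111 FPKM, against 50.1 to 66.7 FPKM. The part of these markers in the Bmp7 level was not tested.

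Grem1 had a log2 fold change of -0.70 between AOM/DSS mice with and without PZH (SE 0.32, 95% confidence interval -1.42 to 0.01, limma adjusted p = 0.432), with means of 37.7 ± 16.1 FPKM and 62.6 ± 27.1 FPKM (SD, n = 5). Here mouse 15, at 64.2 FPKM, and not mouse 35, at 39.8 FPKM, was the highest of the PZH + AOM/DSS group. The estimates of the others were 0.33 for Bmp2, -0.02 for Bmp5, 0.28 for Bmpr1a, 0.20 for Nog, 0.09 for Id1 and -0.37 for Id3, with adjusted p from 0.565 to 0.970. The interval of Bmp5 was -0.30 to 0.26 and that of Id3 -1.19 to 0.46. Id3 ranged from 18.4 to 70.2 FPKM within the PZH + AOM/DSS group. Among the other pathway genes none of 36 passed.

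**Figure D4:**
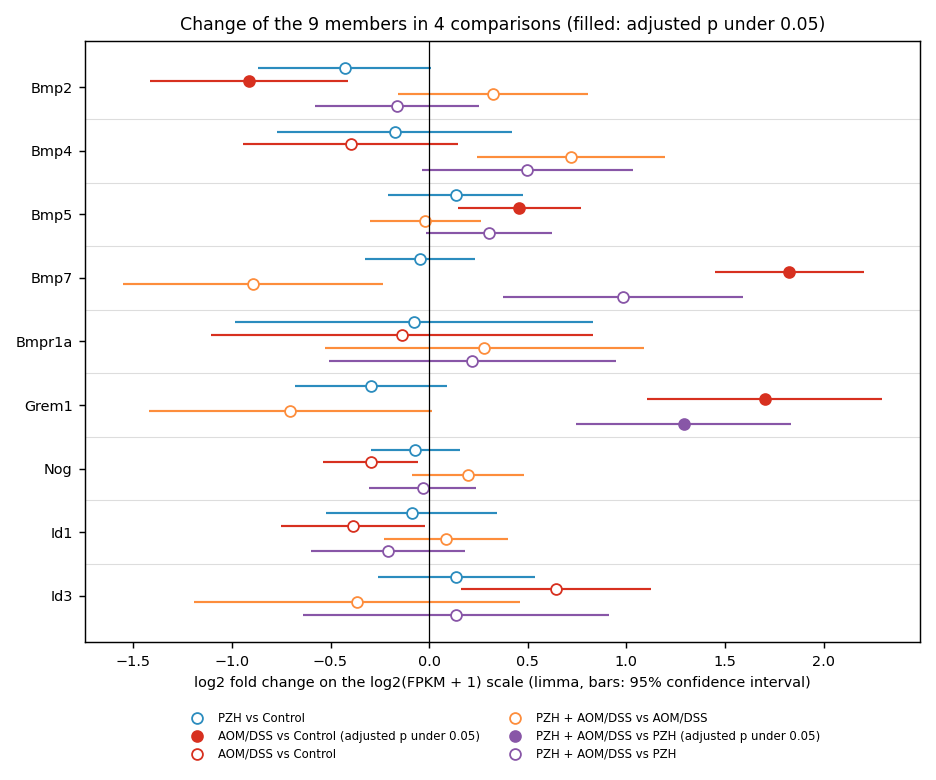
Log2 fold change (x axis, log2(FPKM + 1) scale) of the 9 members (y axis) in 4 comparisons of 5 against 5 mice, with 95% confidence intervals from limma. Filled points have an adjusted p under 0.05: Bmp2, Bmp5, Bmp7 and Grem1 between AOM/DSS and Control, and Grem1 between PZH + AOM/DSS and PZH.

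PZH + AOM/DSS mice were also set against both groups without AOM/DSS. These comparisons share mice with those above and are not independent of them. Against the PZH group, Grem1 was the only member that passed (2.42% of 15636 genes did, 1.74% higher), with a log2 fold change of 1.29 (SE 0.25, 95% confidence interval 0.75 to 1.84, limma adjusted p = 0.0325). The groups did not overlap, as for 7.37% of genes, with PZH mice at 9.81 to 17 FPKM and PZH + AOM/DSS mice at 22.8 to 64.2 FPKM. The call was kept in 4 of 10 fits that each left out 1 mouse, with adjusted p from 0.0305 to 0.0727, and was lost without any 1 of the 5 PZH mice or PZH + AOM/DSS mouse 35 (adjusted p = 0.0538 without the last). It was also lost without the filter on low values (0.0726). Bmp7 had a log2 fold change of 0.98 (adjusted p = 0.0858) and also did not overlap, at 2.31 to 3.06 FPKM in the PZH group and 3.63 to 14.4 FPKM in the PZH + AOM/DSS group. In a single model of all 20 mice it passed (adjusted p = 0.0205), where the count of all genes past the threshold went from 378 to 1043. Outside the members, Chrdl2 passed (1.28, adjusted p = 0.0283).

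Against the Control group none of the 9 members passed, where 2.42% of 15616 genes did (242 higher and 136 lower, or 210 and 212 with median-of-ratios scaling). At an unadjusted p under 0.05, which 20.9% of genes reached, there were 4 members. These were Grem1 (1.00, adjusted p = 0.0661), Bmp7 (0.93, adjusted p = 0.101), Bmp5 (0.44, adjusted p = 0.133) and Bmp2 (-0.59, adjusted p = 0.158). In a single model of all 20 mice, Grem1 (adjusted p = 0.0290) and Bmp7 (adjusted p = 0.0198) passed. That model took the count of all genes past the threshold from 378 to 1533. Chrdl2 was again the only other pathway gene past the threshold (1.39, adjusted p = 0.0196).

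Whether the PZH effect differed with and without AOM/DSS was tested as an interaction over all 20 mice. None of the 9 members passed, where 0.0118% of 16936 genes did (2 genes), and 3 members had an unadjusted p under 0.05, which 10.3% of genes reached. The interaction was 0.75 for Bmp2 (SE 0.31, limma unadjusted p = 0.0237, adjusted p = 0.418), 0.89 for Bmp4 (SE 0.36, unadjusted p = 0.0228, adjusted p = 0.416) and -0.85 for Bmp7 (SE 0.33, unadjusted p = 0.0204, adjusted p = 0.413). Of the 20 fits that each left out 1 mouse, 1 passed for Bmp7, that without PZH + AOM/DSS mouse 35 (-1.11, adjusted p = 0.0149). Leaving out that mouse also took the count of all genes past the threshold from 2 to 476. Over all 20 fits the Bmp7 estimate ran from -1.11 to -0.68 and its adjusted p reached 0.631.

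**Figure D5:**
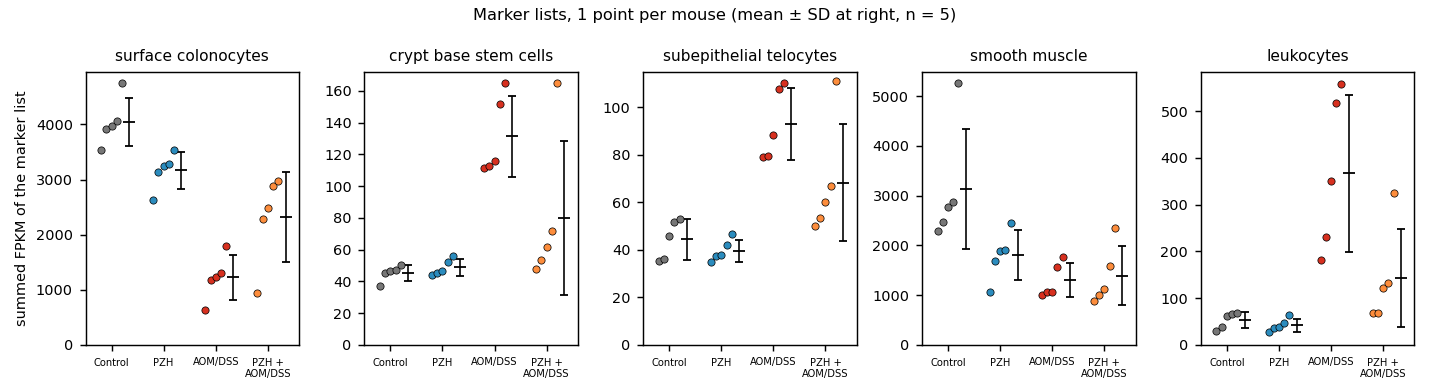
Summed FPKM (y axes, linear, from 0) of 5 lists of cell type markers in each mouse (points), by group (x axis), with mean ± SD (n = 5). PZH + AOM/DSS mouse 35 is the single high point of its group for crypt base, telocyte and leukocyte markers (165, 111 and 324 FPKM) and the low point for surface colonocytes (948 FPKM), and Control mouse 50 is the high point for smooth muscle (5266 FPKM).

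How far the members varied together within groups was described without a test. Over the 20 deviations of log2(FPKM + 1) from the group means, Spearman's rho between members other than Nog ran from -0.40 to 0.45. The lowest was that of Bmp7 with Bmpr1a, and the highest were those of Bmp7 with Id1 and Bmp2 with Bmp4. Between Id1 and Id3 it was 0.26. Among 14140 genes with a mean of at least 1 FPKM, those closest to Bmp7 were Ccdc3 (rho 0.92), Mmp14 (0.92), which encodes a membrane-bound matrix protease, and Cd276 (0.89). Those closest to Grem1 were Lox (0.90), which encodes the collagen cross-linking enzyme lysyl oxidase, Ppig (0.83) and Esf1 (0.81). For Bmp2 they were Stk25 (0.86), Utp14b (0.80) and Slc22a23 (0.79), and for Bmp4 Abhd14a, Gm7160 and Pdk2 (0.77 to 0.78). For Bmp5 they were Usp36 (0.89), Olfml2b (0.86) and Tbx2 (0.84), and for Bmpr1a Ero1lb (0.81) and Kmt2c (0.77). For Id1 they were Cited4 (0.85), Fam110a (0.84) and Tmem102 (0.83), and for Id3 Spink1 (0.86), Adgra2 (0.84) and Rabep2 (0.82). Nog, below 1 FPKM, was not ranked. These values are the top of many and share library, depth and tissue composition, so they are descriptions only.

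In the GENCODE M21 annotation of GRCm38, 4 of the 9 members lie on chromosome 2, namely Grem1 (chr2:113746164-113758646), Bmp2 (chr2:133552159-133562885), Id1 (chr2:152736251-152737410) and Bmp7 (chr2:172868012-172940321). Bmp4 (chr14:46383520-46390669) and Bmpr1a (chr14:34410734-34503341) lie on chromosome 14, Bmp5 (chr9:75775364-75900310) on chromosome 9, Nog (chr11:89300638-89302332) on chromosome 11 and Id3 (chr4:136143497-136145755) on chromosome 4. Bmp2, Grem1 and Nog had 1 annotated transcript each in the files. For the other 6, a single transcript carried between 89.3% (Id3) and 99.7% (Bmp5) of the summed level, so the sums mostly followed 1 transcript.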

How the data were processed

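The RNA-seq libraries of 20 colon samples were compared. The authors filtered the reads, ran HISAT2 on mm10 and StringTie on the alignments, and the deposited files hold FPKM per transcript without a header that names the unit or further scaling. Low values lay on steps of 1 size per mouse (42.5 to 48.0% within 0.05 of a step), from which depth was read. FPKM were summed per gene over 96032 Ensembl transcripts found in GENCODE M21, and 22252 assembled and 150 other transcripts were left out. Genes with at least 0.5 FPKM in at least 5 mice were tested with limma 3.58.1 in R 4.3.3 (intensity trend, no covariates) on log2(FPKM + 1), using the 10 mice of the compared groups or all 20 for the interaction. Benjamini-Hochberg adjusted p under 0.05 was the threshold. Count tests were not used, since there are no counts. The fits were tested on simulated data, with changes planted only in genes of higher level and lower spread. That simulation did not examine genes as low as Nog. Each mouse gave 1 library, and no batch is named. The members and gene lists were chosen with earlier results of these data known. Genes outside the members were named where they passed the threshold, at most 5 per list with the smallest adjusted p, or were the 3 most alike. A listed gene and a most alike gene are not reported here, and the list counts and medians leave the listed one out.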

Additional observations from a re-analysis of the deposited data

Results flagged for a closer look

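Within each group of 5 mice, the gap of the highest or lowest mouse to its neighbor was compared with the group's range. Of 36 groups of values (9 members in 4 groups), 3 held a mouse that stood apart, where chance alone gives about 1.8. Bmp2 in the AOM/DSS group was at 20.6 FPKM in mouse 30, with the next mouse at 12.1 FPKM (gap over range 0.803). Bmp4 in the same group was at 16.4 FPKM in the same mouse, with the next at 9.37 FPKM (0.712). Grem1 in the Control group was at 25.2 FPKM in mouse 50, which also had the highest smooth muscle marker sum, with the next mouse at 17 FPKM (0.722).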

How the results depend on the processing

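The rises of Bmp7 and Grem1 between AOM/DSS and Control mice kept their call under every alternative run. Bmp2 kept it in all planned ones. Bmp5 kept it in 3 of 10 fits without 1 mouse and in 4 of 7 others. Fragments in unnamed transcripts are missing from the sums of every result. With 5 mice per group the confidence interval of Bmpr1a spans both directions in every comparison. Depth limits Nog most, and it has no value under the filter of at least 1 FPKM in every mouse. No paired analysis was possible because the groups share no mouse numbers.

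Counts of genes past the threshold moved as follows. Between PZH and Control mice, 1 gene became 2 with single transcripts and 0 in one model of all 20 mice. Between AOM/DSS mice with and without PZH, 1 became 0 without a filter, 3 with single transcripts and 76 in one model. Between PZH + AOM/DSS and Control mice, 378 became 98 without a filter, 177 with single transcripts, 1533 in one model and 29 without Control mice 17 and 50, and the members went from 0 to 2 in one model. Between PZH + AOM/DSS and PZH mice, 378 became 90 without a filter, 155 with single transcripts and 1043 in one model, and the members went from 1 to 0 without a filter and to 2 in one model. For the interaction, 2 genes became 0 with a pseudocount of 0.1, without a filter, with single transcripts and without Control mice 17 and 50, and 1 with at least 1 FPKM in every mouse. Single transcripts, no filter and at least 1 FPKM in every mouse change the genes entering the adjustment. So does one model of all 20 mice, which also takes the spread from all of them. For the rest the cause was not tested.

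Leaving out each mouse in turn gave 1 to 2 genes for PZH against Control, 2516 to 3562 for AOM/DSS against Control, 1 to 808 for PZH + AOM/DSS against AOM/DSS (808 without mouse 35), 78 to 495 against Control, 54 to 423 against PZH and 0 to 476 for the interaction. Against Control, the count moved by over 1.5 times without Control mice 17, 41, 48 or 50 or PZH + AOM/DSS mice 2, 15 or 35, and against PZH without any PZH mouse or PZH + AOM/DSS mice 2 or 15. The members past the threshold were 0, 3 to 5, 0 to 1, 0, 0 to 1 and 0 to 1.

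Estimates that changed sign were all small and past no threshold. With median-of-ratios scaling, Bmp5 between AOM/DSS mice with and without PZH was 0.0210. Without Control mice 17 and 50, Id3 was -0.0532 between PZH and Control mice and Bmpr1a -0.0708 between PZH + AOM/DSS and Control mice. With 1 mouse left out, the log2 fold changes between PZH and Control mice ran from -0.37 to 0.16 for Bmpr1a, -0.11 to 0.00547 for Bmp7, -0.21 to 0.0354 for Id1 and -0.31 to 0.0619 for Bmp4. Bmpr1a ran from -0.43 to 0.10 between AOM/DSS and Control mice and from -0.15 to 0.35 between PZH + AOM/DSS and Control mice. Between AOM/DSS mice with and without PZH Bmp5 ran from -0.0684 to 0.0502 and Id1 from -0.0136 to 0.15. Between PZH + AOM/DSS and PZH mice Bmpr1a ran from -0.0128 to 0.40, Id3 from -0.0459 to 0.42 and Nog from -0.0819 to 0.0494.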
